A study of Homo sapiens with 16 samples.

Results

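The HOX genes encode homeodomain transcription factors that sit in 4 clusters on different chromosomes, and the 38 of them analysed here were taken by name, as members of the family, with no threshold on a measured value. They are 10 genes of the HOXA cluster on chromosome 7, 10 of HOXB on chromosome 17, 9 of HOXC on chromosome 12 and 9 of HOXD on chromosome 2, out of 20037 protein-coding genes in the RefSeq annotation (GRCh38.p14). Each gene was given a window made of its body plus 2 kb on each side, and each cluster a span from its first to its last listed member plus 50 kb on each side. The measurement is the position of TOP2A cleavage cluster regions, short stretches of DNA recovered with topoisomerase II alpha (TOP2A), and a region belonged to a window or span that held its centre. The 4 spans held 558 of the 1469949 regions in 5 lists.

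The cells were K562, an established human line from a chronic myeloid leukaemia in blast crisis. TOP2A was captured with the DNA attached to it, and that DNA was sequenced, in 14 treated or vehicle libraries beside 2 input libraries. Cells received p-benzoquinone at 8 µM for 4 h, or etoposide at 25 µM, genistein at 50 µM or mitoxantrone at 2 µM for 1 h, or the 0.05% DMSO vehicle that all poison-treated cells also received. Vehicle exposures of 1 h and 4 h are given for the study but not per library. The authors pooled 11 amplified libraries into 1 list per treatment, from 3 DMSO, 3 etoposide, 2 genistein, 1 mitoxantrone and 2 p-benzoquinone libraries, so no value below has a replicate behind it and no difference could be tested against replicate spread. The mitoxantrone library was tied to its list by treatment, and another p-benzoquinone library, called amplified in its description and unamplified in its title, is not tied to a list by its labels.

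TOP2A cuts both strands of DNA, passes another duplex through the break and reseals it, and a poison holds the enzyme on the broken DNA. Etoposide and mitoxantrone are anticancer drugs, genistein is a soy isoflavone, and p-benzoquinone is a reactive metabolite of benzene. HOX genes are arranged along each cluster in the order in which they act along the body axis, from anterior to posterior. Polycomb complexes keep the clusters silent, KMT2A (MLL1) keeps them active, and in blood cells sustained expression of genes such as HOXA9 is a recurrent feature of acute leukaemia, above all with KMT2A fusions, which are themselves associated with exposure to TOP2 poisons.

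The lists held 415215 genistein regions after overlapping entries were joined, 359249 p-benzoquinone regions, 310038 DMSO regions, 202865 mitoxantrone regions and 182582 etoposide regions. Because list size differs, every density is given over the genome mean of its own list, and every ratio to DMSO is scaled by list size. All intervals are exact 95% intervals (Poisson for a density, binomial for a ratio or a share). They cover counting error only, since each treatment is 1 pooled list without replicate values, and they are not adjusted for the number of comparisons. The reads carried no molecular identifiers. The lowest value kept was 1.84 in the DMSO, 1.82 in the etoposide, 3.72 in the genistein, 3.87 in the mitoxantrone and 1.82 in the p-benzoquinone list. Values also rose in a coarse step (0.324 to 0.358) in some parts of the lists and in a fine step (0.228 to 0.246) in others. The steps found were coarse only in the genistein and mitoxantrone lists and fine only in the p-benzoquinone list. Every region of these lists was therefore given that class. The DMSO and etoposide lists mixed both steps. In them, 20.8% and 29.0% of values took no class, among them all values of 30 or more. CDKN2A, which is homozygously deleted in K562 as background knowledge, held 1, 0, 1, 0 and 0 regions in the DMSO, etoposide, genistein, mitoxantrone and p-benzoquinone lists, against 3.54, 2.09, 4.74, 2.32 and 4.11 at the genome mean.

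The 4 HOX spans, flanks included, carried TOP2A cleavage regions at 0.997 to 1.27 times the genome mean, depending on the list. The 4 spans together, 920.584 kb in all, held 124 DMSO regions, which is 1.20 times the genome mean (interval 0.998 to 1.43). They held 72 etoposide regions, 1.18 times the mean (0.926 to 1.49), and 138 genistein regions, 0.997 times the mean (0.838 to 1.18). Mitoxantrone gave 72 regions, 1.07 times the mean (0.833 to 1.34). p-Benzoquinone gave 152 regions, 1.27 times the mean (1.08 to 1.49), and was the one list whose interval for the 4 spans lay above 1. With values under 4 left out, its density was 1.21 and the interval spanned 1 (0.974 to 1.49), and with regions counted by an overlap of 1 base the DMSO interval also lay above 1 (1.21, 1.01 to 1.44).

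Among single clusters, the HOXA span had the highest density, in the p-benzoquinone list. It held 39 p-benzoquinone regions where the genome mean would give 26.0, a ratio of 1.50 (1.07 to 2.05). The same span held 26 DMSO regions (1.16 times the mean, 0.758 to 1.70), 14 etoposide regions (1.06, 0.580 to 1.78), 34 genistein regions (1.13, 0.784 to 1.58) and 15 mitoxantrone regions (1.02, 0.572 to 1.69). The lowest density was that of HOXB in the genistein list, with 32 regions against 45.1 at the genome mean, a ratio of 0.709 (0.485 to 1.00). HOXB held 40 DMSO regions (1.19, 0.848 to 1.62), 23 etoposide regions (1.16, 0.735 to 1.74), 19 mitoxantrone regions (0.862, 0.519 to 1.35) and 51 p-benzoquinone regions (1.31, 0.973 to 1.72). HOXC ranged from 1.10 for p-benzoquinone (31 regions) to 1.32 for etoposide (19 regions), and HOXD from 1.08 for genistein (33 regions) to 1.21 for mitoxantrone (18 regions). For the whole HOXC and HOXD spans, every interval spanned 1.

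**Figure D1:**
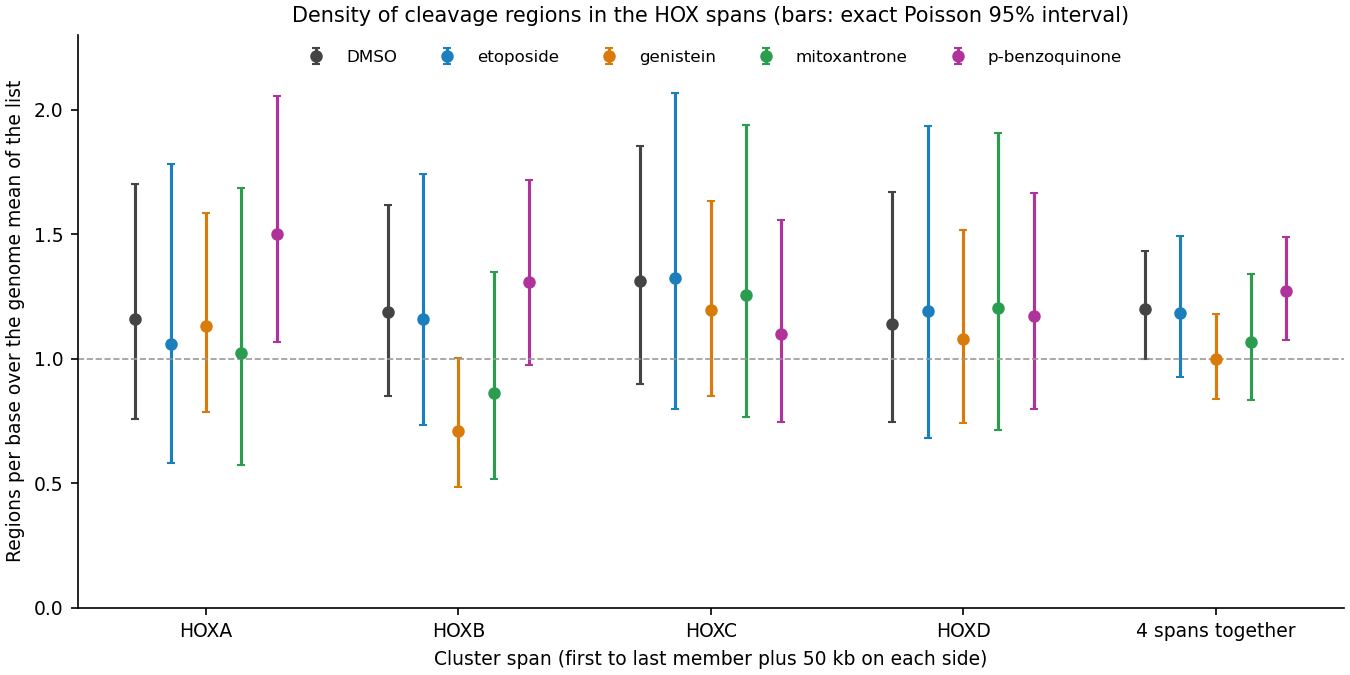
Density of TOP2A cleavage regions in each HOX span over the genome mean of the same list, with exact Poisson 95% intervals as bars and a dashed line at the genome mean. The p-benzoquinone point of HOXA (1.50) is the highest and the genistein point of HOXB (0.709) the lowest.

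K562 is aneuploid, so each span was also set against the 5 Mb on either side of it, taken as sharing its chromosome segment. Copy number along these flanks was not checked. Against these flanks the p-benzoquinone density of HOXA was 1.25 times higher (0.882 to 1.71) and the genistein density of HOXB was 0.841 times as high (0.573 to 1.19), and both intervals spanned 1. The flanks of HOXA were themselves at 1.21 times the genome mean for p-benzoquinone, and those of HOXB at 0.843 times for genistein. Over the 20 pairs of cluster and list, the ratio to the flanks ran from 0.841 to 1.39, and no interval left 1 out.

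Regions were denser between the outer HOX genes than in the 50 kb beside them in 4 of the 5 lists, and genistein was the exception. Between the first and last members lay 81 DMSO regions, 1.39 times the genome mean (1.10 to 1.72), against 43 in the 50 kb flanks, 0.958 times (0.693 to 1.29). p-Benzoquinone gave 95 inner regions, 1.40 times (1.14 to 1.72), and 57 in the flanks, 1.10 times (0.830 to 1.42). Etoposide gave 1.28 (0.929 to 1.72) inside and 1.06 (0.704 to 1.53) beside, and mitoxantrone 1.26 (0.926 to 1.66) inside and 0.817 (0.524 to 1.22) beside. Genistein gave 0.946 (0.743 to 1.19) inside and 1.06 (0.820 to 1.36) beside. By single cluster, the inner interval lay above 1 for HOXC in the DMSO list (1.75, 1.11 to 2.62) and for HOXA in the p-benzoquinone list (1.77, 1.12 to 2.66). It spanned 1 for every other pair of cluster and list. The inner density over the flank density was lowest for genistein (0.888, 0.627 to 1.26) and highest for mitoxantrone (1.54, 0.923 to 2.62). It was 1.45 in the DMSO (0.988 to 2.15), 1.28 in the p-benzoquinone (0.913 to 1.81) and 1.21 in the etoposide list (0.735 to 2.01), so no list separated the inner stretch from its flanks beyond counting error.

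**Figure D2:**
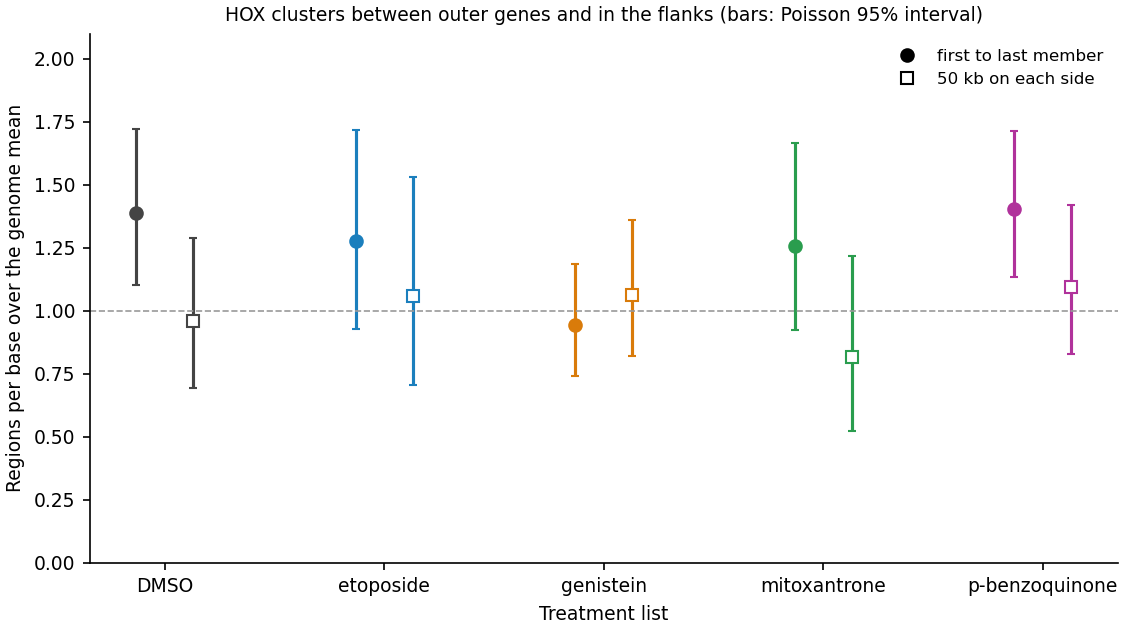
Density over the genome mean between the first and last members of the 4 HOX clusters (filled circles) and in the 50 kb on each side (open squares), per list, with Poisson 95% intervals. The inner value is above the flank value for DMSO, etoposide, mitoxantrone and p-benzoquinone, and below it for genistein (0.946 against 1.06).

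Over the 4 spans together, the number of regions with each poison was within counting error of DMSO. The list-size scaled ratio to DMSO was 1.06 for p-benzoquinone (0.829 to 1.35), 0.986 for etoposide (0.727 to 1.33), 0.887 for mitoxantrone (0.654 to 1.20) and 0.831 for genistein (0.647 to 1.07). With the 50 kb flanks left out, the genistein ratio was 0.682 (0.491 to 0.947), from 74 genistein and 81 DMSO regions between the outer members. The coarse-step DMSO regions stood at 1.33 times the genome mean in that inner stretch (0.921 to 1.86) and the fine-step ones at 1.48 (1.01 to 2.09). The genistein regions, which were all given the coarse class, stood at 0.946. Against the 34 coarse-step DMSO regions alone the ratio was 0.711 and its interval spanned 1 (0.468 to 1.10), a comparison added after the data were seen. It left out DMSO values without a class but no genistein region, so these lists were not filtered alike. Among the 6 pairs of poisons, genistein over p-benzoquinone was the one ratio whose interval left 1 out (0.786, 0.619 to 0.996). Those lists differ in exposure time (1 h against 4 h) and share no step size.

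Cluster by cluster, 1 of the 16 ratios to DMSO passed 1.5-fold. HOXB held 32 genistein regions against 40 DMSO regions, a scaled ratio of 0.597 (0.363 to 0.975). Of genome tiles as wide as the HOXB span, 9.17% were at least 1.5-fold lower with genistein, and the HOXB ratio stood at percentile 4.68 of those tiles. For the other 15 ratios, values ran from 0.726 (mitoxantrone, HOXB, 0.397 to 1.28) to 1.29 (p-benzoquinone, HOXA, 0.768 to 2.21), and every interval spanned 1. With etoposide, 0 of 4 spans passed 1.5-fold, against 9.09% (HOXB width) to 13% (HOXA width) of tiles upward and 9.43% to 13.5% downward. With mitoxantrone, 0 of 4 spans passed it, against 12% to 15.9% of tiles upward and 11.5% to 15% downward. With p-benzoquinone, 0 of 4 spans passed it, against 9.87% of HOXA-width, 7% of HOXB-width, 9.05% of HOXC-width and 10% of HOXD-width tiles upward and 12.5% to 15.1% downward. With genistein, 0 of 4 spans passed it upward, against 10% to 12.6% of tiles. When DMSO was restricted to its 14 coarse-step regions in the HOXB span, the genistein ratio was 0.747 (0.387 to 1.51), and its interval spanned 1. DMSO values without a class were left out there, whereas all genistein regions were kept.

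**Figure D3:**
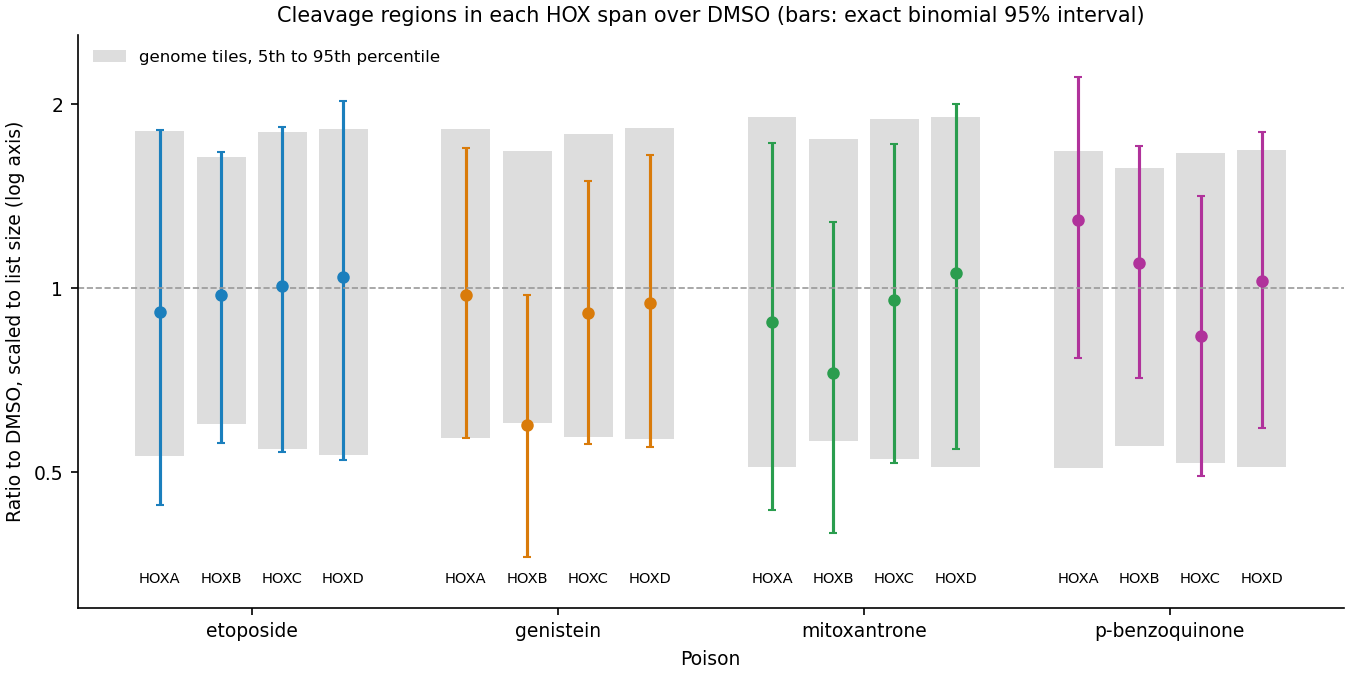
List-size scaled ratio of cleavage regions in each HOX span to DMSO for the 4 poisons, on a log axis with exact binomial 95% intervals, beside the 5th to 95th percentile of genome tiles as wide as each span (grey). The genistein ratio of HOXB (0.597) is the one point past 1.5-fold.

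All 38 HOX genes had a cleavage region in at least 1 of the 5 lists, and each list left some HOX genes empty. A region in at least 1 list was also found for 96.8% of all protein-coding genes and 96.3% of those with windows in the members' length range. DMSO regions lay in 26 windows, etoposide regions in 25, genistein regions in 26, mitoxantrone regions in 23 and p-benzoquinone regions in 31. Over all 18973 protein-coding genes measured, 85.7%, 75%, 86.7%, 75.3% and 89.9% had a region in those lists. HOX windows are short (median 7.79 kb against 29.5 kb for all genes), and of the 11528 genes with windows in the members' length range (5.68 to 49.6 kb), 81.3%, 65.6%, 82.7%, 66% and 87.6% had one. The members' shares, 68.4%, 65.8%, 68.4%, 60.5% and 81.6%, therefore lay below the background of all genes in each list and above that of the length range for etoposide alone. That range sets bounds only and is not matched to the members' median window, so these comparisons do not control for length within it. Cover, the share of window bases inside regions over the genome mean of the list, had a median over members of 0.758 in the genistein list, where the median of all genes was 0.891. In the other lists the member median was 1.23 (DMSO, all genes 0.976), 1.19 (etoposide, 0.866), 1.16 (mitoxantrone, 0.844) and 1.29 (p-benzoquinone, 1.09). Genistein was the one list in which the member median lay under the median of all genes, and it was close to the median of 0.77 over genes in the members' length range. In the other lists the length-range medians were 0.931, 0.746, 0.700 and 1.17, all under the member medians.

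Windows of neighbouring HOX genes overlap: 24 members took part in 19 overlapping pairs, so their counts share regions. HOXA3, as annotated, runs over HOXA4, HOXA5 and HOXA6, HOXB3 runs over HOXB4, and HOXC4, HOXC5 and HOXC6 have the same start. The windows together covered 40.3% of the spans and held 48.4% of the DMSO, 44.4% of the etoposide, 41.3% of the genistein, 54.2% of the mitoxantrone and 46.1% of the p-benzoquinone regions in them.

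**Figure D4:**
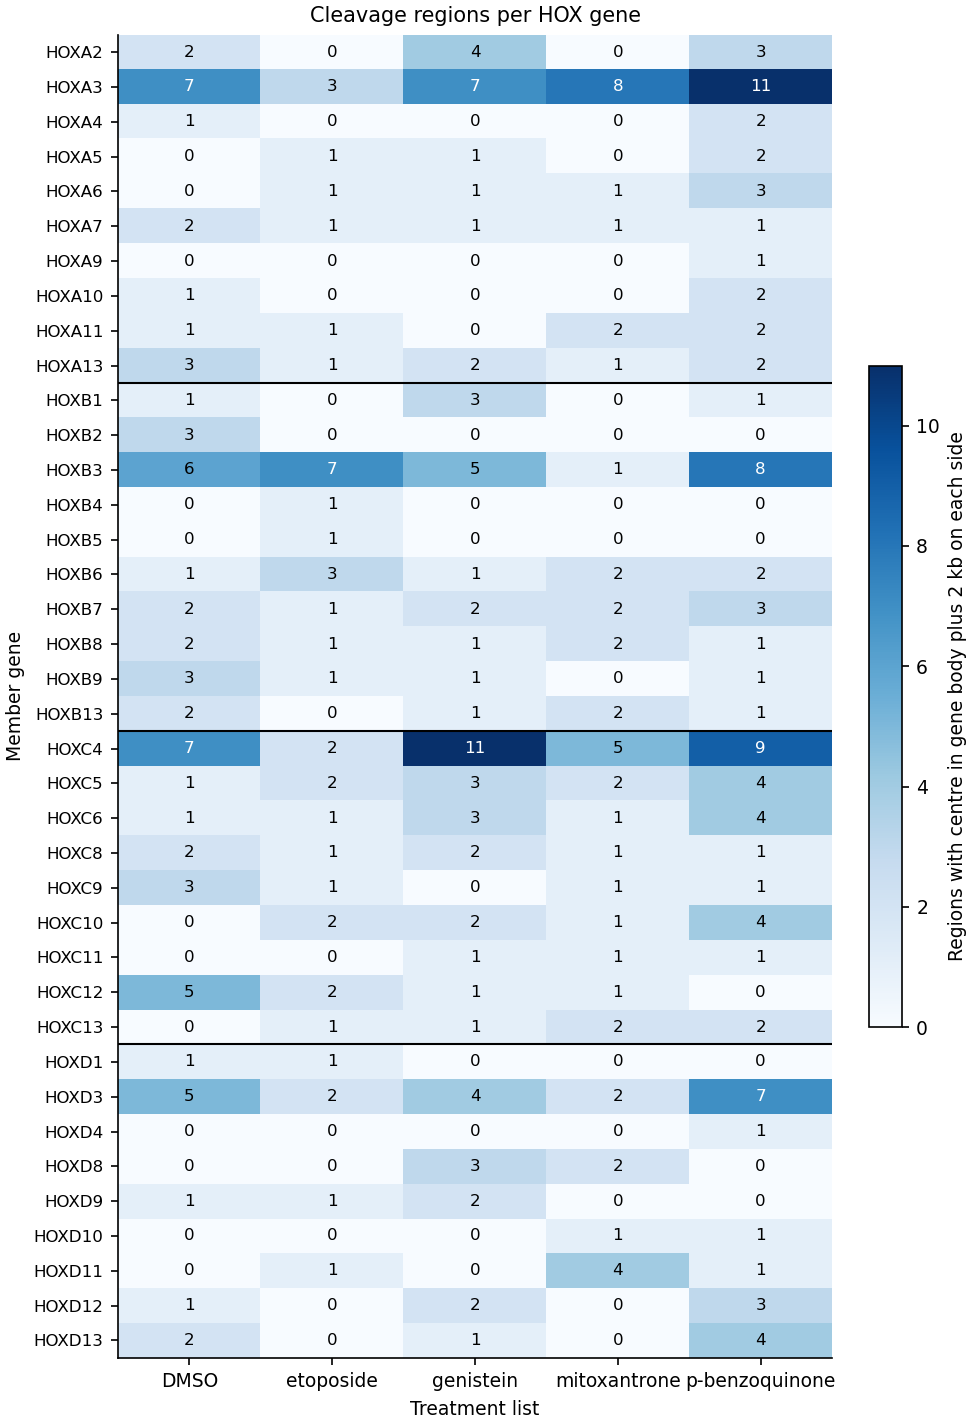
Number of TOP2A cleavage regions in the window (gene body plus 2 kb on each side) of each of the 38 HOX genes in each list, as a heat map with the number written in each cell and lines between clusters. The long windows of HOXA3, HOXB3, HOXC4 and HOXD3 hold the highest totals over the 5 lists, though not the highest numbers in each list. No column is empty over a whole cluster.

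Among the anterior genes, which pattern the hindbrain, neck and pharyngeal arches, the highest counts were those of the long group 3 windows. HOXA3, needed for the thymus and parathyroid glands, had 7 DMSO, 3 etoposide, 7 genistein, 8 mitoxantrone and 11 p-benzoquinone regions. Scaled to list size, its ratio to DMSO was 1.36 (0.480 to 4.13) for p-benzoquinone and 1.75 (0.553 to 5.66) for mitoxantrone, so the higher counts were within counting error. HOXB3 had 6, 7, 5, 1 and 8 regions in the same order of lists, and its single mitoxantrone region gave a ratio of 0.255 with an upper bound of 2.1. HOXD3 had 5, 2, 4, 2 and 7. HOXB2, a hindbrain regulator, stood apart in a different way, with 3 DMSO regions at chr17:48542162-48542312, chr17:48545108-48545237 and chr17:48546857-48547007 and none in its window in any poison list. The centres of these 3 regions lie outside the gene body, and a p-benzoquinone region at chr17:48547116-48547231 lies just past the window edge. The contrast thus depends on the 2 kb added on each side. With 3 counts against 0 no fold is given, and the upper bound of the ratio was 4.11 for etoposide and 1.81 for genistein.

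HOXA2, the selector gene of the second pharyngeal arch, had 2 DMSO, 0 etoposide, 4 genistein, 0 mitoxantrone and 3 p-benzoquinone regions. HOXB1, which specifies a hindbrain segment and the facial nerve, had 1, 0, 3, 0 and 1, and HOXD1 had 1, 1, 0, 0 and 0. Both HOXA2 and HOXB1 were thus empty with the anticancer drugs etoposide and mitoxantrone, at counts too low to separate from DMSO. Over all 7 anterior windows, the density over the genome mean was 1.59 for p-benzoquinone (1.08 to 2.27), 1.48 for DMSO (0.946 to 2.20), 1.36 with etoposide (0.723 to 2.32), 1.06 with genistein (0.670 to 1.59) and 1.03 with mitoxantrone (0.517 to 1.85). The p-benzoquinone interval was the one above 1, among 15 pairs of axial group and list.

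The central genes (groups 4 to 8) pattern the trunk, and several act in blood cells, as HOXB4 does in haematopoietic stem cells. HOXC4 had 7 DMSO, 2 etoposide, 11 genistein, 5 mitoxantrone and 9 p-benzoquinone regions. Within its window, HOXC5 had 1, 2, 3, 2 and 4 and HOXC6 had 1, 1, 3, 1 and 4. Their p-benzoquinone counts were 3.45 times the DMSO count after scaling (0.342 to 170 for each gene), an interval that a single DMSO region leaves wide. HOXB6 had 1, 3, 1, 2 and 2 regions, and the etoposide ratio of 5.09 had an interval of 0.409 to 267. HOXB7 had 2, 1, 2, 2 and 3, and HOXB8, which can immortalise myeloid progenitors when overexpressed, had 2, 1, 1, 2 and 1. HOXA7 had 2, 1, 1, 1 and 1 and HOXC8, which acts in brachial motor neurons, had 2, 1, 2, 1 and 1, so these 4 genes had 1 to 3 regions in every list.

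The other central genes had 1 to 6 regions over the 5 lists. HOXB4 and HOXB5 had 1 etoposide region each and none elsewhere, and HOXD4 had 1 p-benzoquinone region and none elsewhere. HOXD8 had 3 genistein and 2 mitoxantrone regions and none with DMSO, etoposide or p-benzoquinone. HOXA4 had 1 DMSO and 2 p-benzoquinone regions, HOXA5 had 1 etoposide, 1 genistein and 2 p-benzoquinone regions, and HOXA6 had 0, 1, 1, 1 and 3 in the order DMSO, etoposide, genistein, mitoxantrone and p-benzoquinone. Over the 15 central windows the density was between 1.16 times the genome mean for DMSO (0.666 to 1.89) and 1.56 times for mitoxantrone (0.852 to 2.61), and every interval spanned 1.

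The posterior genes (groups 9 to 13) pattern the lumbar and sacral trunk, the limbs and the genital tract. HOXC12 had the largest shortfall against DMSO of any member after scaling. It had 5 DMSO regions between chr12:53953717 and chr12:53959816, 2 etoposide, 1 genistein, 1 mitoxantrone and 0 p-benzoquinone regions. The upper bound of the p-benzoquinone ratio was 0.942, and the other ratios were 0.149 with genistein (0.00316 to 1.33), 0.306 with mitoxantrone (0.00646 to 2.73) and 0.679 with etoposide (0.0647 to 4.15). HOXD11, which with HOXA11 shapes the forearm and kidney, had the largest excess, with 0 DMSO, 1 etoposide, 0 genistein, 4 mitoxantrone and 1 p-benzoquinone regions, and the lower bound of its mitoxantrone ratio was 1.01. Of its 4 mitoxantrone regions, the one at chr2:176117437-176117595 lies in the body of HOXD10, and the p-benzoquinone region at chr2:176112113-176112264 overlaps the mitoxantrone region at chr2:176112106-176112264. HOXC12 with p-benzoquinone and HOXD11 with mitoxantrone were the 2 of 51 comparisons of a member with DMSO whose interval left 1 out, before any allowance for 51 comparisons.

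HOXA13, whose loss causes hand-foot-genital syndrome, had regions in every list (3 DMSO, 1 etoposide, 2 genistein, 1 mitoxantrone and 2 p-benzoquinone). HOXD13, the gene of synpolydactyly, had 2, 0, 1, 0 and 4, and its DMSO region at chr2:176093525-176093691 had the highest DMSO value in any HOX gene window, 41.63. HOXC10, a hindlimb-level gene, had 0, 2, 2, 1 and 4, HOXC13, needed for hair and nails, had 0, 1, 1, 2 and 2, and HOXB13, active in the prostate, had 2, 0, 1, 2 and 1. HOXB9 had 3, 1, 1, 0 and 1 and HOXC9 had 3, 1, 0, 1 and 1, so both had their highest number with DMSO. HOXA11 had 1, 1, 0, 2 and 2.

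The remaining posterior genes had few regions. HOXA9, the leukaemia-associated member, had 1 region in all, from p-benzoquinone, at chr7:27163660-27163927 inside the gene, with a value of 4.33. HOXA10 had 1 DMSO and 2 p-benzoquinone regions. HOXC11 had 0, 0, 1, 1 and 1, HOXD9 had 1, 1, 2, 0 and 0, HOXD10 had 0, 0, 0, 1 and 1, and HOXD12 had 1, 0, 2, 0 and 3 in the order DMSO, etoposide, genistein, mitoxantrone and p-benzoquinone. Over the 16 posterior windows the genistein density was 0.676 times the genome mean (0.369 to 1.13), the lowest of the 15 values, while DMSO stood at 1.42 (0.891 to 2.15), etoposide at 1.21 (0.603 to 2.16), mitoxantrone at 1.48 (0.829 to 2.44) and p-benzoquinone at 1.39 (0.902 to 2.06). All 5 intervals spanned 1.

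Read by a fixed rule, members with at least 3 regions in the poison or the DMSO list were compared at a scaled ratio of 2-fold, with a count of 0 in 1 list taken as past it. The background is the share of protein-coding genes that met the same minimum, 11752 to 13914 genes per poison. It was not limited by window length, and HOX windows are short (median 7.79 kb against 29.5 kb for all genes). The shares are therefore not matched for length, and no excess or deficit of HOX genes is read from them. For etoposide, 1 of 10 members was higher (HOXB6), against 10.4%, and 2 were lower (HOXB2 and HOXC4), against 20.9%. For genistein, 4 of 14 were higher (HOXB1, HOXC5, HOXC6 and HOXD8), against 12.8%, and 5 were lower (HOXA13, HOXB2, HOXB9, HOXC9 and HOXC12), against 19%. For mitoxantrone, 1 of 10 was higher (HOXD11), against 11%, and 4 were lower (HOXB2, HOXB3, HOXB9 and HOXC12), against 20.2%. For p-benzoquinone, 5 of 17 were higher (HOXA6, HOXC5, HOXC6, HOXC10 and HOXD12), against 19.8%, and 4 were lower (HOXB2, HOXB9, HOXC9 and HOXC12), against 9.44%. HOXC5 and HOXC6 share regions, and all 4 comparisons use the same DMSO list, so HOXB2 counts as lower in each of them through its 3 DMSO regions.

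**Figure D5:**
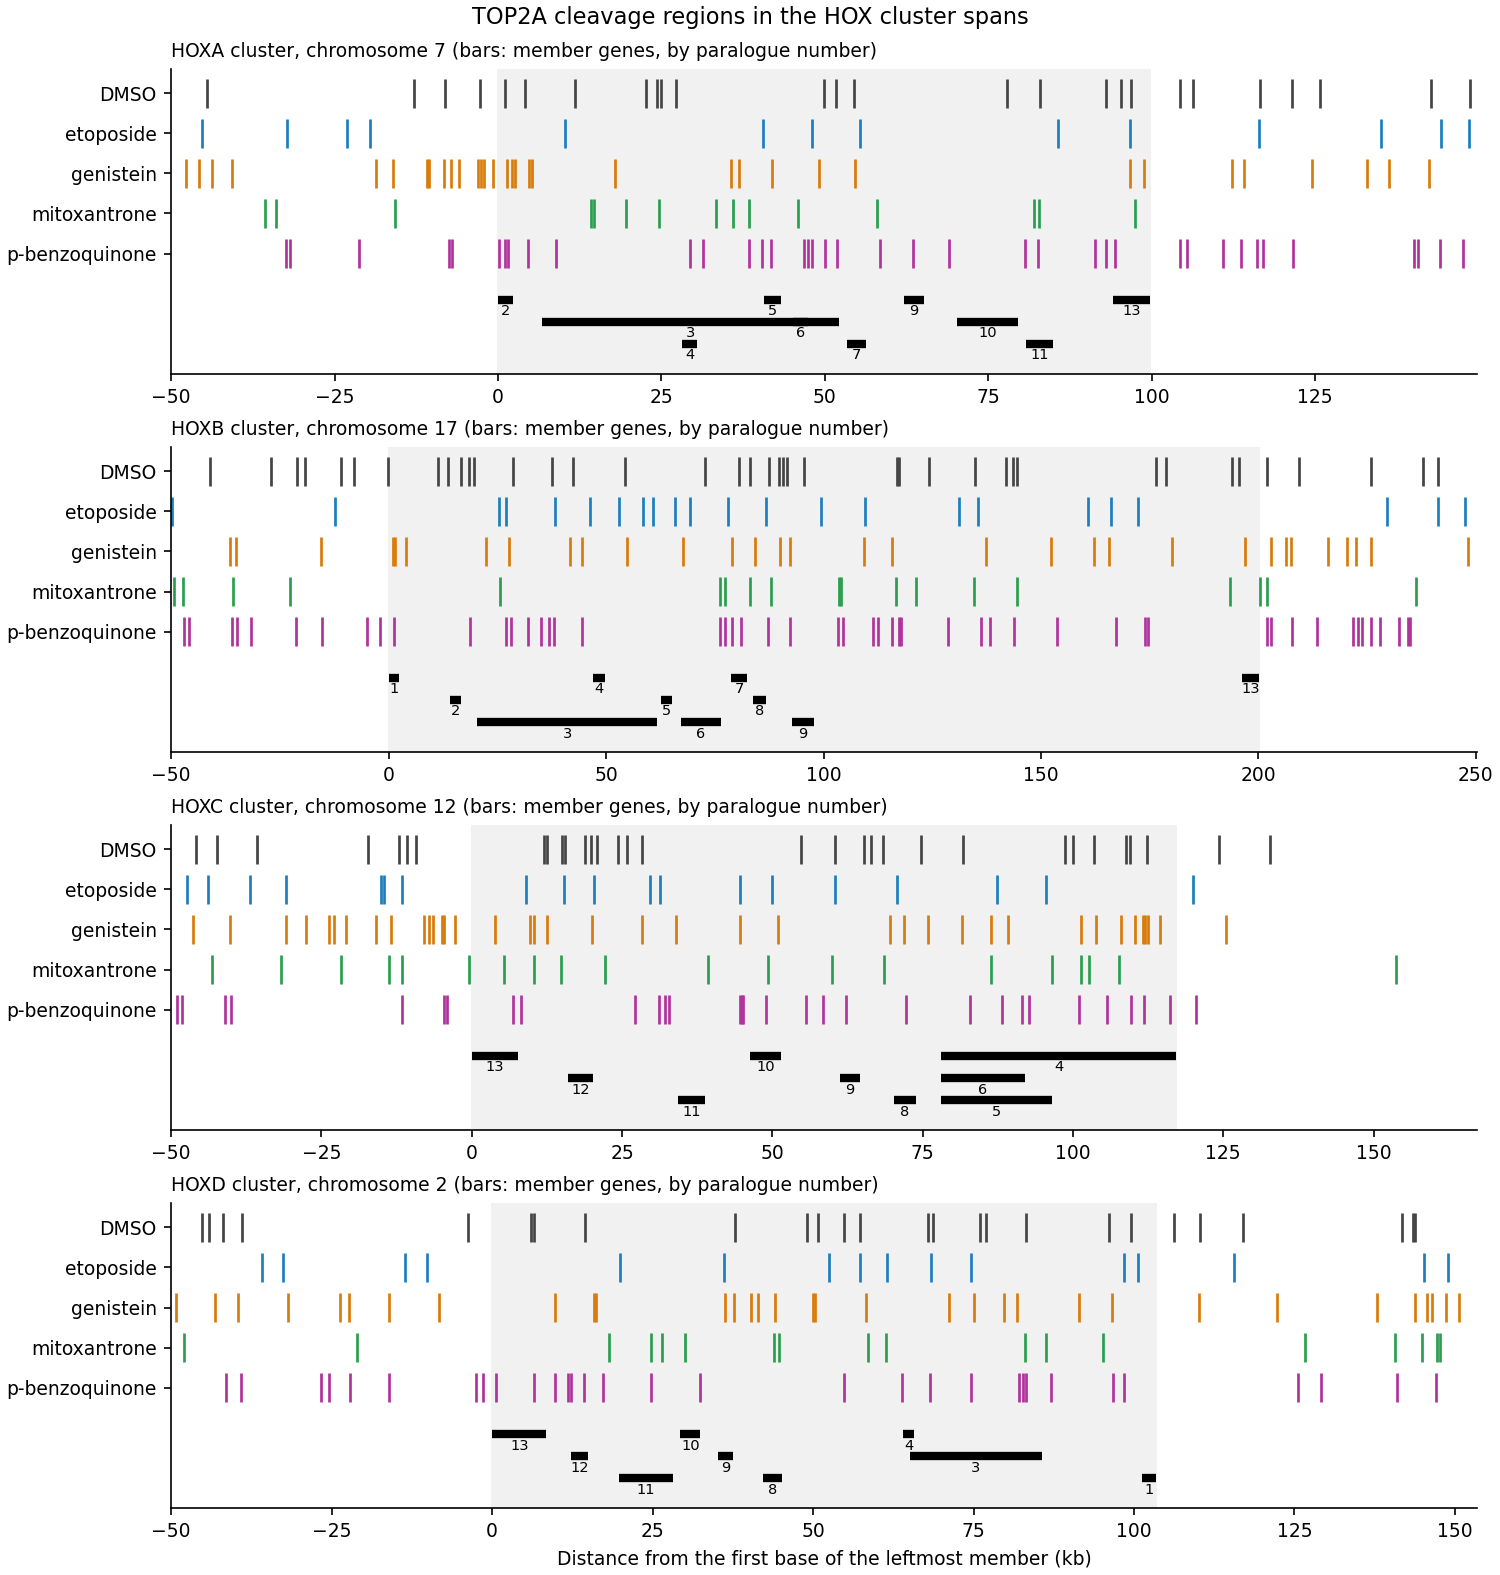
Position of every cleavage region (ticks, by list) in the 4 HOX spans, as distance in kb from the first base of the leftmost member, with member genes as black bars labelled by paralogue number and the stretch between the outer members in grey. HOXA3, HOXB3 and HOXC4 are the long bars, and the ticks are spread along each span in all 5 lists.

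Cleavage regions overlapped 0 to 3 HOX promoters per list, counts too small to set apart from the share of all promoters. RefSeq promoter sequences (GRCh38.p14, 250 bases before to 50 after a start) were at hand for 20 of the 38 members, 26 promoters in all. A DMSO region overlapped 1 of the 26 (HOXA3) against 4.85% of 34935 promoters, an etoposide region 1 (HOXD11) against 2.56%, genistein regions 2 (HOXA2 and HOXA3) against 5.03%, mitoxantrone regions 0 against 2.39%, and p-benzoquinone regions 3 (HOXA6, HOXD4 and HOXD12) against 7.35%. A count of 0 of 26, taken as under 3 of 26, allows a share of up to 11.5%. The 2 genistein overlaps took in 26 and 4 bases at the edge of the promoter, whereas the 3 p-benzoquinone regions covered 241, 137 and 159 of the 300 bases. The promoters with more than 50 bases inside a region are printed 5′ to 3′ on the strand of the gene to show where in them the cleavage regions lie, with the bases inside the region in capitals.
HOXA6 promoter with p-benzoquinone, chr7:27147725-27148024, minus strand: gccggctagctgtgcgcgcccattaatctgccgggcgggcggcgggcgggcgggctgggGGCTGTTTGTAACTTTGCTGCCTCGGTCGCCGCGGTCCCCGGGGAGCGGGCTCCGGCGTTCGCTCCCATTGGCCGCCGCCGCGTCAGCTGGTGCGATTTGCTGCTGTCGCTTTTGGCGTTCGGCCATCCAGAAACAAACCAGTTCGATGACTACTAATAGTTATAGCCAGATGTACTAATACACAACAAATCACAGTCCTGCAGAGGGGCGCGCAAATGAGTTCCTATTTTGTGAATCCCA
HOXD12 promoter with p-benzoquinone, chr2:176099545-176099844, plus strand: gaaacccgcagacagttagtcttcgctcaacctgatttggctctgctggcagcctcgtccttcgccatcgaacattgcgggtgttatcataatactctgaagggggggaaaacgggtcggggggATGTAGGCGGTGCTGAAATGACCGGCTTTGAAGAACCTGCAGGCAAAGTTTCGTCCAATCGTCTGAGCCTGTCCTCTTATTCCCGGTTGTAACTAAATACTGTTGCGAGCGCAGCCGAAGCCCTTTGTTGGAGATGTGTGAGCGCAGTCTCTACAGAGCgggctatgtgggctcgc
HOXD4 promoter with p-benzoquinone, chr2:176151300-176151599, plus strand: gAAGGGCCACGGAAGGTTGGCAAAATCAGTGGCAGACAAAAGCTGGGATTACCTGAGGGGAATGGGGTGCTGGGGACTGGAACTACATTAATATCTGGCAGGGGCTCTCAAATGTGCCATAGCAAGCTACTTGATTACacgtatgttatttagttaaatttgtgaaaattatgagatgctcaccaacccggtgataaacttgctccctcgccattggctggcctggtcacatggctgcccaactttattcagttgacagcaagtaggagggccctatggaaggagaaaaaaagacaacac
HOXA3 promoter with DMSO, chr7:27122978-27123277, minus strand: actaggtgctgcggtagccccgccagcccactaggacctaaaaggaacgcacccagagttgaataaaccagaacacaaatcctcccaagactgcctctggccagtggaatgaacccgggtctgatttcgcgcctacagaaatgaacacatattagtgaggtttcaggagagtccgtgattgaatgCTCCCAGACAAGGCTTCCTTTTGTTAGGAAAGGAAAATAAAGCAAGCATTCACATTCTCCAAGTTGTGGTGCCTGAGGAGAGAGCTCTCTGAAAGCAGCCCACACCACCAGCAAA
HOXD11 promoter with etoposide, chr2:176107030-176107329, plus strand: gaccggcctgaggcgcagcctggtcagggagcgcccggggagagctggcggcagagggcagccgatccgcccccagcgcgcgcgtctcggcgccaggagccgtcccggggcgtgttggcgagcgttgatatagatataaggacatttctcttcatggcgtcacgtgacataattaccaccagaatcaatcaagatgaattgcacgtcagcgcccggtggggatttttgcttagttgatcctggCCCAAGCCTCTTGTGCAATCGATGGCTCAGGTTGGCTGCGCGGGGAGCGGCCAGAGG

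The start site lies inside the region in 4 of these 5 promoters. The HOXA6 region (value 8.19) reached from 191 bases before the start to past the end of the printed stretch, the HOXD12 region (3.37) from 126 bases before to 32 after, the HOXA3 region (3.24) from 65 bases before and the HOXD11 region (7.12) from 7 bases before. The HOXD4 region (6.27) lay upstream, ending 113 bases before the start. Motifs were searched on both strands: CCAAT was found in 17 of the 26 member promoters (65.4%, against 34.6% of all promoters), TATAAA in 5 (19.2% against 11.6%), GGGCGG in 13 (50% against 44.9%), the PBX and HOX site TGATNNAT in 3 (11.5% against 7.42%) and GAGAG in 14 (53.8% against 61.6%). The median GC share was 58% in member promoters and 58.7% in all, and the median number of CpG dinucleotides was 22.5 and 14. These are descriptions of the letters, with promoters of 1 gene overlapping in part.

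The HOX clusters also hold microRNA genes whose products repress HOX messages, and 1 of them lay wholly inside a cleavage region. MIR196A1, between HOXB9 and HOXB13 at chr17:48632490-48632559, had its 70-base hairpin inside the mitoxantrone region chr17:48632422-48632652, with a value of 33.37 against a list median of 13.28. The p-benzoquinone region with the highest value in the HOXB span, 19.54 at chr17:48632665-48633469, began 105 bases from the hairpin, and another mitoxantrone region and another p-benzoquinone region lay 429 and 530 bases away. No DMSO, etoposide or genistein region lay within 2 kb. The hairpin is printed because a region covers all of it, and the 5p products of the miR-196 genes because they share a seed (bases 2 to 8, in capitals). The 3p product of MIR196A1 has a different seed and is printed as the other arm of that hairpin. All are as RefSeq gives them (GRCh38.p14).
MIR196A1 hairpin: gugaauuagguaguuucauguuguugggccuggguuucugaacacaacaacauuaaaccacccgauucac
miR-196a-5p: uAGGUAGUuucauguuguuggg
miR-196b-5p: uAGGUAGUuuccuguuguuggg
miR-196a-1-3p: cAACAACAuuaaaccacccga

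The other microRNA genes had regions beside them at most. MIR196B, beside HOXA10, had a p-benzoquinone region (value 14.74) 57 bases away, the highest p-benzoquinone value in the HOXA span. MIR10B, beside HOXD4, had an etoposide region 1227 bases, a mitoxantrone region 1430 bases and a p-benzoquinone region 888 bases away. MIR615, inside HOXC5, had an etoposide region 228 bases and a mitoxantrone region 1152 bases away. MIR10A had an etoposide region 1428 bases away, and MIR196A2 had a DMSO region 1703 bases and a genistein region 1983 bases away.

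Positions in the HOX clusters were shared between treatments about as often as over the genome. The 558 regions made up 485 separate stretches, of which 418 came from 1 list (86.2%, against 87.8% of stretches over the genome), 62 from 2 (12.8% against 10.7%), 5 from 3 (1.03% against 1.29%) and 0 from 4 or 5 (0.118% and 0.00534% over the genome). Of the DMSO regions in the spans 24.2% overlapped a region of any other list by at least 1 base (interval 17.0 to 32.7), against 24.4% over the genome. The shares were 28.9% for p-benzoquinone (21.9 to 36.8) against 21.1%, 25% for mitoxantrone (15.5 to 36.6) against 24.5%, 23.2% for genistein (16.4 to 31.1) against 20.2%, and 22.2% for etoposide (13.3 to 33.6) against 27.4%. Genistein and p-benzoquinone shared 18 regions, which is 13% of the genistein regions (7.92 to 19.8) against 6.84% over the genome and 11.8% of the p-benzoquinone regions (7.17 to 18.1) against 7.89%. The p-benzoquinone share with any list and the genistein share with p-benzoquinone were the values whose intervals left the genome share out.

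The 5 stretches seen in 3 lists include 3 in HOX gene windows. One lies inside HOXA13 at chr7:27196957-27197208, with values of 9.47 for DMSO, 6.09 for etoposide and 8.46 for genistein. Another lies beside HOXB13 at chr17:48730315-48730501 (DMSO 3.93, mitoxantrone 30.79, p-benzoquinone 4.34), and another beside HOXC10 at chr12:53983348-53983541 (etoposide 6.1, genistein 10.75, p-benzoquinone 6.27). The remaining stretches lie outside the HOX gene windows, at chr17:48754269-48754464 (DMSO, genistein and p-benzoquinone) and chr12:53927083-53927302 (etoposide, mitoxantrone and p-benzoquinone).

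The deposited value of a region has no stated unit and is compared within a list only. In the HOX spans the median value was 14.1 for mitoxantrone against 13.3 over its list, 4.83 for p-benzoquinone against 4.83, 5.08 for DMSO against 6.24, 11.8 for genistein against 12.9 and 6.95 for etoposide against 7.79. The highest values in a member window were 55.77 for mitoxantrone (HOXC4, chr12:54041444-54041636), 46.79 for genistein (HOXB3, chr17:48572823-48572983), 41.63 for DMSO (HOXD13), 18.34 for etoposide (HOXB6, chr17:48597729-48597883) and 15.93 for p-benzoquinone (HOXB3). Each was well under the highest value of its list, which ran from 116 in the etoposide to 1817 in the p-benzoquinone list. The HOXD13 (DMSO), HOXC4 (mitoxantrone) and both HOXB3 regions (genistein and p-benzoquinone) lay above the 95th percentile of their lists. So did 2.42% to 6.94% of the regions in the HOX spans, depending on the list. The mitoxantrone list alone gives an input signal, which was 0 in 18 of the 72 HOX regions (25%, against 22.5% of the list), and over the remaining regions, whose input was above 0, the median log2 ratio of treated to input values was 5.06 (list 4.82).

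Genes that act with or on HOX genes showed no common pattern. The 14 measured Polycomb genes of 16 had median covers of 0.643, 0.646, 0.751, 0.552 and 0.694 times the genome mean in the DMSO, etoposide, genistein, mitoxantrone and p-benzoquinone lists, against 0.976, 0.866, 0.891, 0.844 and 1.09 over all genes. The 11 activators had 1.21, 0.961, 0.731, 0.480 and 1.43. Among them KMT2D had 10, 2, 11, 3 and 11 regions. KMT2A, the histone methyltransferase that maintains HOX expression, had 15, 6, 18, 12 and 19 regions, and with p-benzoquinone its cover was 7.78 times the genome mean against 1.21 with DMSO. A single p-benzoquinone region there, chr11:118505952-118514239, is 8288 bases wide, against a list median of 150, and has the highest value of that whole list, 1817. Without it the KMT2A cover with p-benzoquinone was 3.84, and what made this region so wide was not tested. The cofactors, PBX, MEIS and PKNOX proteins that bind DNA with HOX proteins, had medians of 1.09, 1.19, 1.14, 1.19 and 1.16 over 8 measured genes. The 23 other homeobox genes of the related ANTP class had 1.00, 0, 0.370, 1.08 and 1.18, with the etoposide and genistein medians the farthest below those of all genes. Their windows held 40, 14, 33, 19 and 52 regions in all. Many of these windows are short, such as 9.22 kb for DLX3 against a median of 29.5 kb for all genes. The etoposide median of 0 thus means that most of them missed a region, and no median was matched for length.

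By the rule on regions per kb, a pair of genes was named in each list of related genes, with regions given in the order DMSO, etoposide, genistein, mitoxantrone and p-benzoquinone. Of the Polycomb genes, CBX7 had 2, 0, 9, 3 and 7 and EED had 5, 7, 13, 5 and 7. Of the cofactors, PKNOX2 had 59, 27, 52, 29 and 74 and MEIS2 had 48, 25, 38, 25 and 33. Of the ANTP genes, EN2 had 2, 1, 3, 1 and 3 and DLX3 had 2, 0, 2, 1 and 3. These counts are not per length, and the window was 273 kb for PKNOX2 and 9.22 kb for DLX3.

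The 6 boundary genes, which encode CTCF and cohesin subunits, had median covers of 0.982, 0.685, 0.956, 1.13 and 0.628, with 8, 4, 6, 7 and 12 regions in CTCF and 9, 2, 7, 5 and 4 in SMC1A. The 3 CDX genes, activators of HOX genes in the embryo, had medians of 0.890, 1.14, 1.88, 2.29 and 0.980, from 1, 2, 4, 2 and 2 regions in CDX4 and 3, 1, 3, 4 and 8 in CDX1. The 11 genes next to the clusters had 0.807, 0.887, 0.973, 1.10 and 0.812, with 2, 2, 1, 0 and 3 regions in EVX1 and 5, 3, 8, 4 and 6 in SMUG1. The 8 long RNA genes inside the clusters had 1.58, 1.65, 0.803, 0.932 and 1.76, with 2, 0, 6, 0 and 3 regions in HOTAIRM1 and 1, 1, 0, 1 and 2 in HOXC-AS1. The 6 microRNA windows had 0, 1.50, 0, 1.79 and 0.747. These windows of 4.07 to 4.11 kb held 1, 3, 0, 4 and 4 regions in all, so a single region lifted the cover of a window above 1.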

How the data were processed

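The authors captured TOP2A from K562 cells, released and sequenced the bound DNA, and deposited 1 list of regions per treatment. The submitters' processing notes list hg38 as the build and Bowtie2 2.1.0 and SAMtools 0.1.19 as tools, without their role. Not given in the sources used here are the caller of the regions and its settings. Every region carries a score that the authors deposited without naming its unit, and libraries were pooled before deposit. The deposited mitoxantrone list also holds a column of input signal, one of log2 values and a partly filled one of p-values, the last of which was not used. All 5 lists' value columns were mapped to a treatment by name, and 0 were left unmapped.

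Regions on chromosomes 1 to 22, X and Y were kept, overlapping genistein entries were joined, and a region with several values took the highest. Region centres were counted in gene windows and spans taken from RefSeq positions (GRCh38.p14), and the callable genome was the 2763 Mb of 100 kb bins in which some list had a region. Tiles had the width of a span and at least 50% callable bases. Intervals were exact binomial or Poisson. The number of steps per list was set by hand, and the steps were found from low values and refined on values under 30. In the lists with both classes, values of 30 or more and values that suited both classes or neither took no class. The counting and interval code was tested on simulated data: the interval held a planted ratio in 98% of 200 draws. Scripts ran in Python 3.11.15 with scipy 1.17.1, pandas 2.3.3, numpy 2.4.6 and, for plots, matplotlib 3.10.9. Members with no promoter in the RefSeq table were HOXA5, HOXB2 to HOXB9, HOXB13, HOXC6, HOXC8 to HOXC13 and HOXD9.

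The family was picked for description, and the gene lists were chosen, with earlier results of these data known. The rule for named members took the 4 with the most regions in each list, those with regions in 4 or 5 lists, the holder of each list's highest value in a member window, and the 2 with the largest scaled difference from DMSO for each poison. The other members, among them HOXA9, are given so that all 38 are accounted for. Of each list of related genes the rule named the 2 genes with the most regions per kb. Alternatives changed the flanks, the lowest value (4), list size, step class, overlap and promoter width; the comparison of the inner stretch within 1 step class was added after the data were seen.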

Additional observations from a re-analysis of the deposited data

How the results depend on the processing

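Of 315 alternative values for 83 results, 291 stayed within counting error or within 1.5 times of the reported value and 24 moved. No value whose interval left 1 out changed to the other side of 1. With fine-step regions alone, the etoposide density of the 4 spans was 1.57, and the etoposide ratio of HOXA to DMSO was 1.82 in place of 0.914, whose interval spanned 1. With gene bodies alone, members with a region numbered 17 for DMSO, 14 for etoposide and 15 for mitoxantrone. With 5 kb gene flanks, 2 members were 2-fold higher and 11 lower for etoposide, 11 lower for genistein, 4 higher and 8 lower for mitoxantrone, and 8 higher for p-benzoquinone. With values of at least 4, 1 member was higher for genistein, 2 were higher for mitoxantrone, and the number of promoters overlapped by DMSO regions was 0. Requiring 50% overlap, the shared regions were 16.4% for p-benzoquinone, 15.9% for genistein, 13.9% for mitoxantrone, 12.9% for DMSO and 12.5% for etoposide. With promoters widened to 1 kb on each side, 5, 5, 5, 3 and 8 were overlapped in the DMSO, etoposide, genistein, mitoxantrone and p-benzoquinone lists. The cause of each shift was not tested beyond the change in bases or regions counted. The genistein ratio of HOXB to DMSO ran from 0.517 to 0.747 over 9 settings, was below 1 in 9, and its interval left 1 out in 4. No paired analysis was possible because each treatment was deposited as 1 pooled list, and for the same reason no replicate could be left out. At the numbers of regions found, a member's count of 0 to 11 limits gene-level ratios to wide intervals.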
